A study of Mus musculus with 6 samples.

Results

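B-1 cell marker genes are genes that are high in B-1 cells relative to other mouse B cells. Here they were 9 genes, Cd5, Spn, Bhlhe41, Zbtb32, Ctla4, Plscr1, Cd300lf, Tspan32 and Ccr1, found by their symbols in a table of 55487 gene IDs, where each symbol matched 1 row. They were followed in marginal zone (MZ) B cells, which were enriched as B cells by negative selection and then flow-sorted, from CD55 KO mice (3 libraries, genotype labelled CD55KO) and from WT C57BL/6 mice (3 libraries), all 14 weeks old. CD55, or decay-accelerating factor, sits in the cell membrane and protects its own cell from complement. The labels give neither the sort gates, nor the sex, nor whether each library came from its own mouse, so the p-values rest on the spread among these 6 libraries, and that spread may be technical. Of the 9 genes, 8 passed the filter on low counts and were tested, and Ctla4 did not.

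B-1 cells are self-renewing B cells that arise largely in fetal and neonatal life, are frequent in the body cavities and rarer in the spleen, and secrete natural IgM. MZ B cells sit beside the marginal sinus of the spleen, answer blood-borne antigens early, and share some of the innate-like programme of B-1 cells. The markers cover several roles: Cd5 and Spn (CD43) encode the surface proteins by which B-1 cells are commonly sorted, Bhlhe41 and Zbtb32 encode transcription factors, Ctla4 and Cd300lf inhibitory receptors, Ccr1 a chemokine receptor, Tspan32 a tetraspanin, and Plscr1 a phospholipid scramblase. Since a bulk library holds the RNA of all sorted cells together, fewer cells of a type and less RNA per cell cannot be told apart in any value given here.

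The libraries held between 20056064 and 30784031 counts, WT replicate 1 being the shallowest, and that library also lay farthest from the others on the first principal component. Cd55 itself stood at 8.95, 6.23 and 7.43 CPM (read counts scaled to a common library total, with a TMM correction for library composition) in CD55KO replicates 1 to 3, against 125, 119 and 110.0 CPM in WT replicates 1 to 3, so each library matched its label; the labels do not say which part of the gene the CD55 KO mice lack. Transcripts of the labelled cell type were abundant: Cr2, which encodes complement receptor 2, had 1033 to 1171 CPM in CD55KO and 1032 to 1117 CPM in WT, and none of the 12 tested MZ markers passed edgeR's quasi-likelihood test in the fit without a replicate block.

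The markers spanned a wide range of levels in both genotypes. Per kb of exon, Tspan32 was the highest, with 51.8 ± 3.68 CPM per kb in CD55KO and 51.4 ± 5.56 CPM per kb in WT (SD, n = 3 each). Ccr1 followed with 17.9 ± 2.38 CPM per kb in CD55KO and 15.5 ± 2.14 CPM per kb in WT, then Cd300lf with 9.78 ± 0.78 and 7.27 ± 1.14 CPM per kb in CD55KO and WT, and Plscr1 with 8.66 ± 0.57 and 7.31 ± 0.56 CPM per kb in CD55KO and WT. On the same scale Cr2 had 134 CPM per kb in CD55KO and 133 CPM per kb in WT, so even Tspan32 lay below this MZ marker. Bhlhe41 was lower, at 2.99 ± 0.70 CPM per kb in CD55KO and 2.56 ± 0.64 CPM per kb in WT. The genes for the classical B-1 surface proteins and the other transcription factor came last: over all 6 libraries Zbtb32 ranged from 0.280 to 0.829, Cd5 from 0.434 to 0.779 and Spn from 0.281 to 0.505 CPM per kb, and Ctla4 from 0 to 0.122 CPM per kb.

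**Figure D1:**
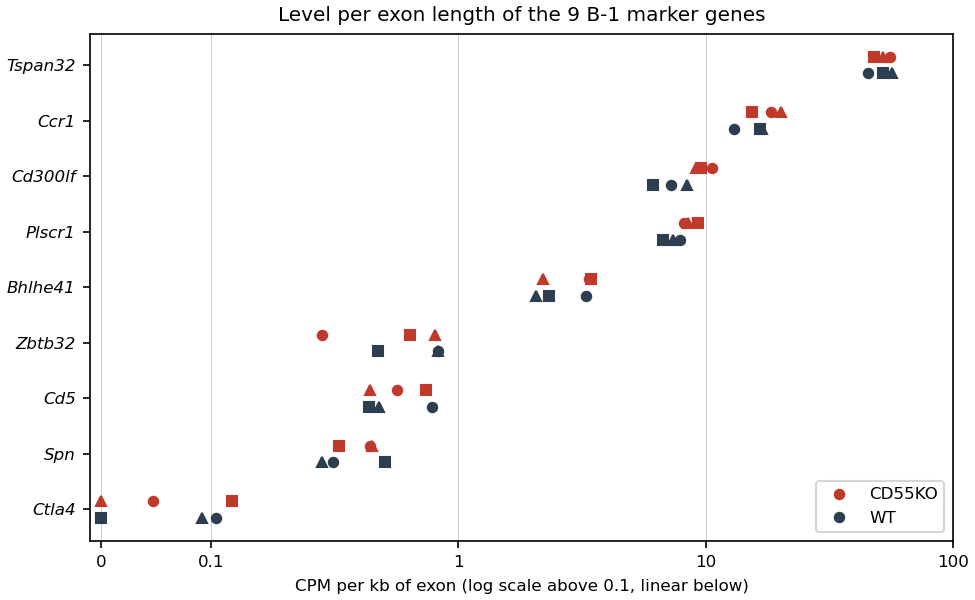
Level of the 9 B-1 marker genes in CPM per kb of exon (horizontal axis, logarithmic above 0.1 and linear below), genes ordered by their mean; each point is 1 library, CD55KO above WT, with circles, squares and triangles for replicates 1, 2 and 3. Tspan32 lies between 45.5 and 56.5 CPM per kb and Ctla4 between 0 and 0.122 CPM per kb.

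In this order, the library ranges of Cd300lf and Plscr1 overlapped, as did those of Zbtb32 and Cd5 and those of Cd5 and Spn. Within libraries, each of these pairs kept its order in 4 of 6. Cd300lf was above Plscr1 in every CD55KO library and, among the WT libraries, in replicate 3 only. Each of the other neighbouring pairs kept its order in all 6 libraries without overlap. On the CPM scale the summed level of the 9 genes was 446 to 501 CPM in CD55KO and 407 to 481 CPM in WT, and Tspan32 alone made up 70.3% of it, so the sum says little of the other 8.

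None of the 8 tested markers differed between CD55KO and WT by edgeR's quasi-likelihood test at an adjusted p under 0.05, where 55 of 13794 tested genes (0.399%) did. An unadjusted p under 0.05 was found for 2 of the 8, Cd300lf and Plscr1, against 8.60% of all tested genes, or 4.30% with a positive fold change as in these 2. The same 2 were the members whose CD55KO libraries did not overlap the WT libraries, a separation seen for 14.1% of all tested genes and, in the direction of these 2, for 7.24%. Log2 fold changes of CD55KO against WT were positive for 7 of the 8 markers, against 50.4% of all tested genes, with a median of 0.18 beside a median of 0.0015 over all tested genes. That median of the markers was 0.11 without CD55KO replicate 1 and 0.091 without WT replicate 3. The set was chosen with earlier results of these data known, so these counts are descriptions.

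**Figure D2:**
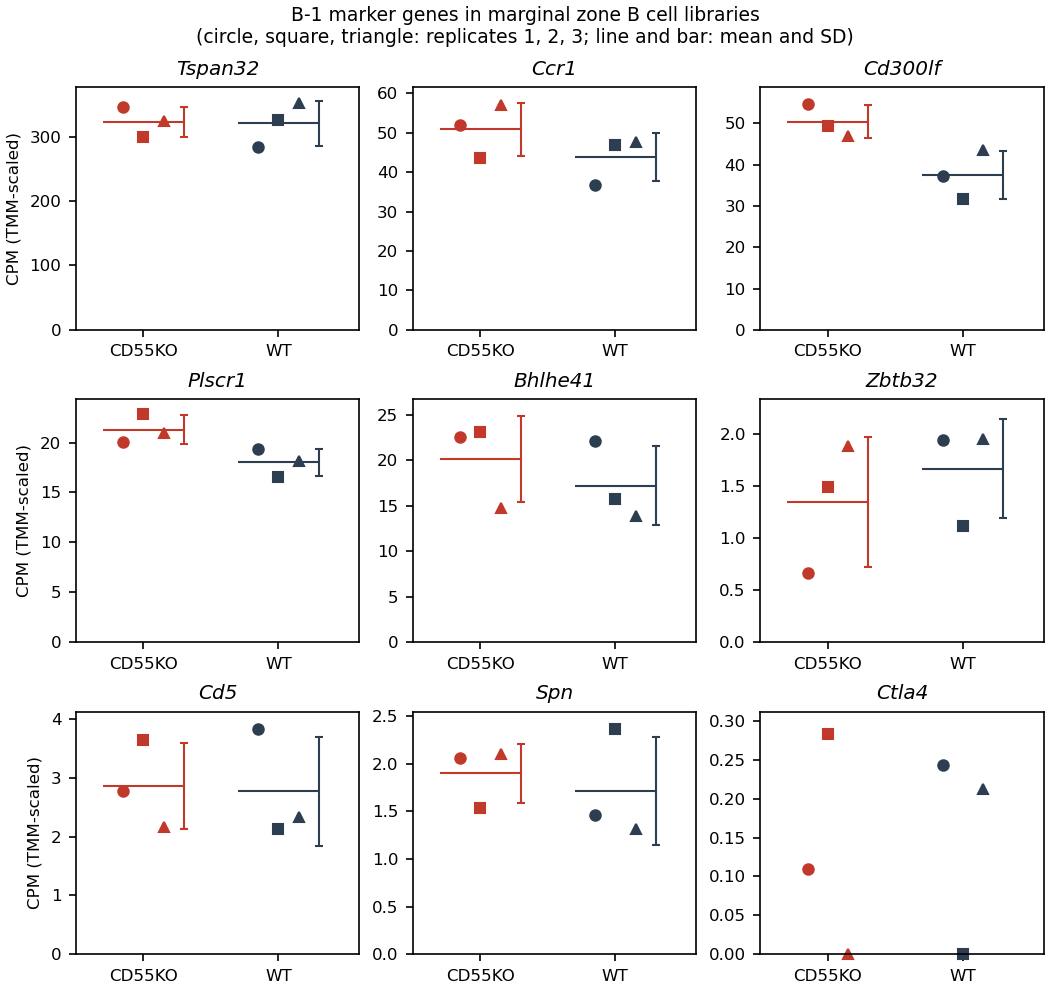
CPM (TMM-scaled, vertical axis from 0) of each marker in the 3 CD55KO and the 3 WT libraries; points are libraries, horizontal lines means and bars SDs, which are left out for Ctla4. For Cd300lf (46.9 to 54.7 against 31.7 to 43.4 CPM) and Plscr1 (20.1 to 22.9 against 16.6 to 19.3 CPM) the CD55KO points lie above the WT points, and for the other 7 genes the points overlap.

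Cd300lf had the largest fold change among the markers, though it did not pass the test. It encodes an inhibitory receptor that binds lipids exposed on dying cells and is best known from myeloid cells. Cd300lf (ENSMUSG00000047798; chromosome 11, positions 115116214 to 115133992 on the minus strand, GENCODE M21 on GRCm38) had 54.7, 49.4 and 46.9 CPM in CD55KO replicates 1 to 3 and 37.2, 31.7 and 43.4 CPM in WT replicates 1 to 3. Every CD55KO library was above every WT library, with the closest pair CD55KO replicate 3 and WT replicate 3. The log2 fold change was 0.43 ± 0.11 (SE), which is 1.35-fold with a 95% interval of 1.148 to 1.58, and edgeR's quasi-likelihood test gave an adjusted p of 0.138 (unadjusted p = 0.0012). DESeq2 called it (adjusted p = 0.0485), as did edgeR with no filter on low counts (0.00071), while over all 16 alternative settings the adjusted p ranged from 0.00071 to 0.437.

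The sequence of Cd300lf lies within Rab37, a gene for a small GTPase on the opposite strand, but the 2 genes share no annotated exon base. Rab37, named after its values were seen, had 22.8, 21.04 and 19.3 CPM in CD55KO replicates 1 to 3 and 16.8, 13.3 and 21.6 CPM in WT replicates 1 to 3. Within each genotype its libraries stood in the same order as those of Cd300lf, and for Rab37 the genotypes overlapped (log2 fold change 0.29 ± 0.15 SE, adjusted p = 0.632 in edgeR's test). The library kit does not mark strand, and the sources used here do not say whether reads from introns were counted.

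Markers of monocytes, macrophages and granulocytes are set beside Cd300lf and Ccr1 because such cells also carry both receptors. Over 14 such markers the summed level was 39.6 to 44.0 CPM in CD55KO and 34.8 to 40.9 CPM in WT, most of it from Mpeg1 and Spic, and no marker passed the test among 7 tested. Mpeg1, which encodes the pore-forming protein perforin-2, had 21.3 to 23.9 CPM in CD55KO and 22.0 to 22.6 CPM in WT. Spic, a transcription factor gene of red pulp macrophages that B cells also transcribe, had 13.4, 10.7 and 11.2 CPM in CD55KO replicates 1 to 3 and 6.02, 7.50 and 8.28 CPM in WT replicates 1 to 3, so its genotypes did not overlap (adjusted p = 0.0901 in edgeR's test); it passed by DESeq2 and without a count filter. Without these 2 genes the sum over the other 12 was 5.18 to 9.35 CPM in CD55KO and 3.94 to 12.5 CPM in WT, groups that overlapped. Adgre1, which encodes the macrophage surface protein F4/80, had 104, 87 and 117 counts in CD55KO replicates 1 to 3 and 85, 65 and 34 counts in WT replicates 1 to 3, with overlapping CPM (log2 fold change 0.65, adjusted p = 0.661 in edgeR's test). Lyz2, Csf1r and Vcam1 had 83, 75 and 58 counts in all in CD55KO and 111, 97 and 52 in WT. None of the 14 was at 0 in all libraries, and the lowest, Fcgr1, the gene for a high-affinity IgG receptor of macrophages, had 1 count, in WT replicate 2. The part of such cells in the Cd300lf difference was not tested.

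Plscr1, a phospholipid scramblase gene that interferons induce, showed the other separation. Plscr1 (ENSMUSG00000032369; chromosome 9, positions 92249750 to 92272278, plus strand) had 20.1, 22.9 and 20.98 CPM in CD55KO replicates 1 to 3 and 19.3, 16.6 and 18.1 CPM in WT replicates 1 to 3. The gap between the genotypes was narrow, since CD55KO replicate 1 lay just above WT replicate 1. The log2 fold change was 0.24 ± 0.11 (SE), which gave adjusted p = 0.537 by edgeR's quasi-likelihood test, and the 95% interval of the fold was 1.01 to 1.39. By contrast, the log2 fold changes of all 16 tested type I interferon response genes were negative, with a median of -0.23. Their summed level was 935, 958 and 803 CPM in CD55KO replicates 1 to 3 and 1046, 1132 and 1121 CPM in WT replicates 1 to 3, lower in every CD55KO library, and Plscr1 did not share that direction.

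Ccr1 encodes a receptor for the chemokines CCL3 and CCL5 and was, after Tspan32, the highest marker per kb of exon. Its levels (ENSMUSG00000025804; chromosome 9, positions 123962124 to 123968692, minus strand) were 52.0, 43.6 and 57.0 CPM in CD55KO replicates 1 to 3 and 36.9, 47.0 and 47.7 CPM in WT replicates 1 to 3. CD55KO replicate 2 fell among the WT libraries. The log2 fold change was 0.21 ± 0.11 (SE, adjusted p = 0.661 in edgeR's test).

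Tspan32 encodes a tetraspanin of blood cells that restrains the proliferation of T cells in mice. It was the best-measured marker, with 5840 to 10212 counts in a library. Tspan32 (ENSMUSG00000000244; chromosome 7, positions 143005046 to 143019644, plus strand) had 346, 299.8 and 324 CPM in CD55KO replicates 1 to 3 and 284, 326 and 352 CPM in WT replicates 1 to 3. The lowest and the highest value were both from WT libraries, and the log2 fold change was 0.01 ± 0.09 (SE), so a change of more than 1.16-fold upwards or to below 0.878-fold lay outside its 95% interval. The antisense gene Tspan32os, which shares 271 exon bases with it, had 2 counts in all.

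Bhlhe41 encodes a basic helix-loop-helix repressor that, together with its paralog Bhlhe40, is needed for the development and upkeep of B-1a cells in mice. Both proteins bind the E-box CACGTG. In the 250 bases before the RefSeq start of each gene, this motif, which reads the same on both strands, was present in 1 of 10 promoters matched to the 9 markers, that of Bhlhe41 itself, and in 6.02% of 32851 promoters in the RefSeq table (GRCm38.p6). The stretch that holds it is shown because the results on Bhlhe41 and Bhlhe40 follow; it covers chr6:145865559-145865670 on the minus strand, upstream of both the RefSeq and the GENCODE M21 start, with the E-box in capitals.
Bhlhe41 upstream: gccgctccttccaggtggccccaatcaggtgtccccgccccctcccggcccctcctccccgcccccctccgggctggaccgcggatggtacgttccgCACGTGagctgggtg
The interferon-stimulated response element, searched in the same windows on both strands as GAAA, any 2 bases and GAAA again, was found in none of the 10 marker promoters and in 2.98% of all promoters. A match is only a stretch of letters, and binding was not measured.

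Expression of Bhlhe41 differed more between libraries of 1 genotype than between the genotypes. Bhlhe41 (ENSMUSG00000030256; chromosome 6, positions 145858243 to 145865558, minus strand) had 22.6, 23.1 and 14.7 CPM in CD55KO replicates 1 to 3 and 22.1, 15.7 and 13.9 CPM in WT replicates 1 to 3. CD55KO replicates 1 and 2 and WT replicate 1 were high, and the other 3 libraries were low. The log2 fold change was 0.23 ± 0.22 (SE, adjusted p = 0.843 in edgeR's test), and it lay between 0.10 and 0.44 in the fits that left out 1 library. The predicted gene Gm43909 shares 1280 exon bases with Bhlhe41 on the opposite strand and had 6 counts in all.

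The same 3 libraries were the highest for Bhlhe40 and for Cd5, but for none of the other tested B-1 genes of either list. Bhlhe40 had 51.3, 50.6 and 41.3 CPM in CD55KO replicates 1 to 3 and 49.5, 39.1 and 42.1 CPM in WT replicates 1 to 3. Cd5, which encodes a surface protein that dampens signalling by the B cell receptor, had 2.79, 3.64 and 2.17 CPM in CD55KO replicates 1 to 3 and 3.84, 2.14 and 2.34 CPM in WT replicates 1 to 3. Thus the lowest of the high libraries stood at 22.1 CPM for Bhlhe41, 49.5 CPM for Bhlhe40 and 2.79 CPM for Cd5, where the highest of the other 3 stood at 15.7, 42.1 and 2.34 CPM. These 3 libraries were also the highest for 5.92% of all tested genes, and a gap as wide as that of Bhlhe41 was found for 0.493%. Because the 3 libraries were taken from the values of Bhlhe41, these shares describe the split and do not test it. From lists other than the B-1 lists, Klf2, Csf1r, Mki67, Ifit3 and Rsad2 had the same 3 libraries highest. The lowest of the high libraries stood at 15.5 CPM for Rsad2 and 0.971 CPM for Csf1r, where the highest of the other 3 stood at 10.6 and 0.958 CPM. Cd5 had 76, 90 and 79 counts in CD55KO replicates 1 and 2 and WT replicate 1, against 62, 67 and 66 in the others. The pattern was noticed after the values were seen and does not follow the genotype. On the first principal component, which held 28.8% of the variance, the same 3 libraries had the negative scores (-1.31 and -4.93 for CD55KO replicates 1 and 2, -40.9 for WT replicate 1) and the other 3 the positive ones (28.02 for CD55KO replicate 3, 4.54 and 14.6 for WT replicates 2 and 3). On this component CD55KO replicates 1 and 2 lay nearer to WT replicate 2 than to WT replicate 1, so the 3 did not form a group there. What sets these libraries apart was not tested.

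**Figure D3:**
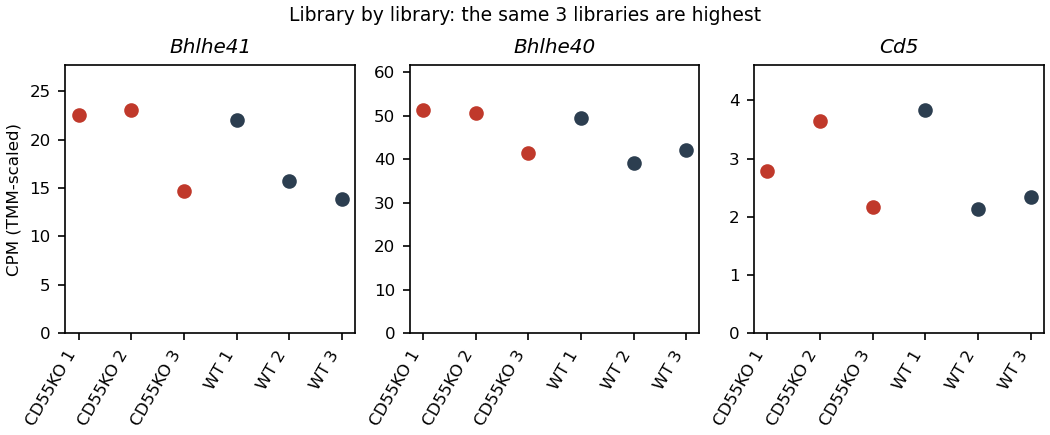
CPM (TMM-scaled, vertical axis from 0) of Bhlhe41, Bhlhe40 and Cd5 in each library, CD55KO replicates 1 to 3 on the left and WT replicates 1 to 3 on the right. CD55KO replicates 1 and 2 and WT replicate 1 are the 3 highest libraries for each gene. The genes were picked after their values were seen, and the other tested B-1 genes had other libraries highest.

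Cd5 did not separate the genotypes (ENSMUSG00000024669; chromosome 19, positions 10717116 to 10739002, minus strand). It rested on 62 to 90 counts per library, and its log2 fold change was 0.06 ± 0.29 (SE, adjusted p = 0.988 in edgeR's test). Spn, which encodes the sialomucin CD43, had 2.05, 1.54 and 2.10 CPM in CD55KO replicates 1 to 3 and 1.46, 2.36 and 1.31 CPM in WT replicates 1 to 3. WT replicate 2 was the highest library and WT replicate 3 the lowest, so the WT range enclosed the CD55KO range. Its log2 fold change was 0.14 ± 0.31 (SE, adjusted p = 0.951 in edgeR's test; ENSMUSG00000051457; chromosome 7, positions 127132232 to 127137823, minus strand), on 30 to 74 counts per library. The pseudogene Spn-ps had 0 counts in every library.

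T cells can also carry Cd5, Spn and Ctla4, so T cell markers were read beside these 3 genes. Of 13 such markers 4 were tested and none passed. The summed level was 16.2 to 19.9 CPM in CD55KO and 14.3 to 17.1 CPM in WT, most of it from Zap70 (12.9 to 14.3 CPM in CD55KO and 11.0 to 13.2 CPM in WT) and Lat (1.78 to 4.06 CPM in CD55KO and 2.33 to 3.62 CPM in WT), both signalling genes that act downstream of the T cell receptor. The other 11 summed to 1.497 to 1.86 CPM in CD55KO and 0.923 to 1.25 CPM in WT, and those ranges did not overlap. Among the defining T cell genes, Cd3d, a subunit gene of the T cell receptor complex, had 16, 10 and 22 counts in CD55KO replicates 1 to 3 and 5, 4 and 13 counts in WT replicates 1 to 3 (log2 fold change 1.08, adjusted p = 0.641 in edgeR's test). Trac, the constant region gene of the receptor's alpha chain, had 12 to 15 counts in CD55KO and 4 to 13 in WT. Cd8b1 had 8 to 11 counts in CD55KO and 3 to 11 in WT, and Cd4 had 1, 0 and 8 counts in CD55KO replicates 1 to 3 and 0 in every WT library. Cd3e and Thy1 had at most 1 count in a library, Cd3g and Cd8a at most 2, and Icos had 0 in all 6. The part of T cells in the counts of Cd5, Spn and Ctla4 was not tested.

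Zbtb32 encodes a zinc finger repressor that restrains recall responses of memory B cells in mice, and it was the only tested marker with a negative log2 fold change. Zbtb32 (ENSMUSG00000006310; chromosome 7, positions 30589681 to 30598909, minus strand) had 0.660, 1.497 and 1.89 CPM in CD55KO replicates 1 to 3 and 1.94, 1.12 and 1.95 CPM in WT replicates 1 to 3. CD55KO replicate 1, with 18 counts, was the lowest, and the other 5 libraries overlapped. The log2 fold change was -0.30 ± 0.39 (SE, adjusted p = 0.906 in edgeR's test), and without CD55KO replicate 1 it turned to 0.03. Its 95% interval, 0.459-fold to 1.44-fold, was the only one among the 8 that reached beyond a 2-fold change.

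Ctla4 encodes an inhibitory receptor that binds CD80 and CD86, and it was at the edge of detection. Ctla4 (ENSMUSG00000026011; chromosome 1, positions 60887000 to 60915832, plus strand) had 3, 7 and 0 counts in CD55KO replicates 1 to 3 and 5, 0 and 6 counts in WT replicates 1 to 3. With 10 counts in all in CD55KO and 11 in WT, no difference was detectable at this depth, and a library at 0 could still hold up to 3 counts, or 0.105 CPM in CD55KO replicate 3 and 0.0958 CPM in WT replicate 2. Such limits cover counting error only. Ctla4 is the only marker on the chromosome of Cd55, 69.5 Mb from it.

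**Figure D4:**
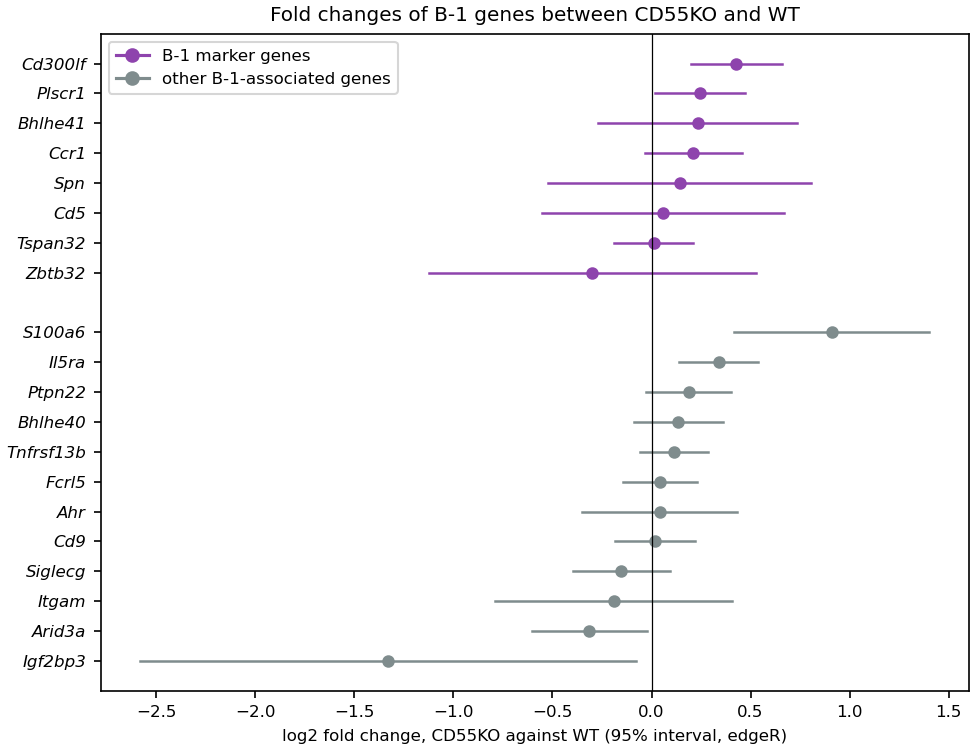
Log2 fold change of CD55KO against WT (horizontal axis) with its 95% interval from edgeR for the 8 tested B-1 marker genes (upper block) and 12 tested other B-1-associated genes (lower block). The intervals of Cd300lf, Plscr1, S100a6 and Il5ra lie above 0 and those of Arid3a and Igf2bp3 below 0, and none of the 20 genes passed an adjusted p of 0.05.

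In the same fit, 12 of 14 further genes linked to B-1 cells were tested. None passed over all genes, and 4 had an unadjusted p under 0.05, where 8.60% of all tested genes did. The log2 fold changes, 8 of them positive and 4 negative, had a median of 0.04. S100a6, a calcium-binding protein gene, had 9.31, 14.97 and 7.25 CPM in CD55KO replicates 1 to 3 and 5.198, 6.07 and 5.44 CPM in WT replicates 1 to 3 (log2 fold change 0.91 ± 0.23 SE, adjusted p = 0.162 in edgeR's test), and passed without CD55KO replicate 3, by DESeq2 and without a count filter. Il5ra encodes a chain of the receptor for interleukin-5, a cytokine that B-1 cells depend on. It had 33.3, 36.7 and 32.7 CPM in CD55KO replicates 1 to 3 and 28.2, 28.2 and 24.7 CPM in WT replicates 1 to 3 (log2 fold change 0.34 ± 0.09 SE, adjusted p = 0.200 in edgeR's test). For both genes every CD55KO library was above every WT library, a separation seen in this direction for 7.24% of all tested genes.

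From the same 14 genes, Lin28b, Igf2bp3 and Arid3a, known from fetal blood and B lineage cells, are named after their values were seen, and none of them passed. Lin28b, the RNA-binding protein gene that marks fetal blood progenitors, had 0 counts in all 6 libraries and was not tested. Igf2bp3, an RNA-binding protein gene that acts downstream of Lin28b, had 0.513, 0.0809 and 0.210 CPM in CD55KO replicates 1 to 3 and 0.583, 0.894 and 0.568 CPM in WT replicates 1 to 3 (adjusted p = 0.548 in edgeR's test). Arid3a, a transcription factor gene also high in fetal B lineage cells, had 10.3, 9.99 and 9.25 CPM in CD55KO replicates 1 to 3 and 13.4, 10.8 and 12.6 CPM in WT replicates 1 to 3 (adjusted p = 0.537 in edgeR's test). For Igf2bp3 and Arid3a each CD55KO library lay below each WT library, where 14.1% of all tested genes separated in either direction. Igf2bp3 was near the floor, with 14, 2 and 6 counts in CD55KO replicates 1 to 3 and 12, 28 and 16 counts in WT replicates 1 to 3.

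Other B cell states were read from lists of markers in the same fit. The 6 B lineage markers had a median log2 fold change of -0.00029, the 12 MZ markers one of 0.0030 and the 6 follicular markers one of 0.04, and none of their members passed in that fit; without WT replicate 3, or with a replicate block, 1 MZ marker did, Asb2, which encodes a ubiquitin ligase subunit. Cxcr5, a chemokine receptor gene of the follicular list that MZ B cells transcribe too, had 683 to 771 CPM in CD55KO and 617 to 832 CPM in WT. Plasma cell markers, with 5 tested, had a median of -0.76, and 1 passed: Xbp1, a transcription factor gene of secretory cells, fell to 78.5 ± 6.21 CPM in CD55KO, against 118 ± 14.0 CPM in WT (SD, n = 3 each, adjusted p = 0.0047 in edgeR's test). Irf4, which plasma cells also need, averaged 60.8 ± 4.95 CPM in CD55KO against 56.9 ± 7.02 CPM in WT. The summed level of the plasma cell list was 143 to 160 CPM in CD55KO and 173 to 231 CPM in WT. Xbp1 was its largest member, with 71.6, 80.0 and 83.8 CPM in CD55KO replicates 1 to 3 and 129, 124 and 102 CPM in WT replicates 1 to 3. The sum therefore says little of the other members. Germinal centre markers, with 8 tested, had a median of -1.45 and summed to 26.5 to 37.2 CPM in CD55KO and 29.7 to 94.1 CPM in WT; 7 of the 8 fold changes were negative, and Gcsam was the 1 member that passed (log2 fold change -1.81, adjusted p = 0.0343 in edgeR's test). Nuggc, whose CD55KO libraries also lay below every WT library, had a log2 fold change of -2.07 (adjusted p = 0.227 in edgeR's test) and passed by DESeq2 and without a count filter. Gcsam did not pass with the replicate block, in both limma-voom fits, in the non-robust fit or in the 6 fits that left out 1 library; among those 6, the members that passed were Rgs13 and Nuggc, both without WT replicate 2. Fas, a death receptor gene of that list, had 10.1 to 11.6 CPM in CD55KO and 8.17 to 12.6 CPM in WT. Platelet markers, with 1 of 6 tested and none past the threshold, summed to 0.630 to 0.917 CPM in CD55KO and 0.575 to 1.26 CPM in WT, led by Itga2b and Gp1ba. The part of these cell states in the values of the B-1 markers was not tested.

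The intervals show what this design could and could not tell apart. The 95% interval of the fold change lay within 2-fold in either direction for 7 of the 8 tested markers and within 1.5-fold for 3 of them, Tspan32, Ccr1 and Plscr1. Cd300lf, Plscr1, Bhlhe41 and Ccr1 kept a positive fold change in each of the 16 alternative settings, and the signs of Spn, Cd5, Tspan32 and Zbtb32 turned in 1, 3, 3 and 1 of them, in that order, Zbtb32 having been tested in 15.

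**Figure D5:**
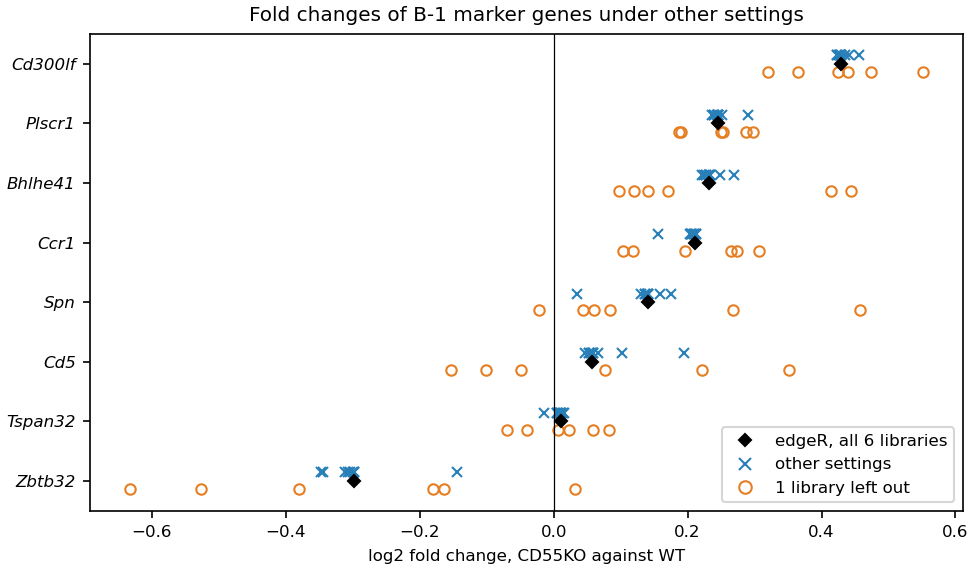
Log2 fold change of CD55KO against WT (horizontal axis) of the 8 tested markers: black diamonds are edgeR's values with all 6 libraries, blue crosses the other tools, scalings, filters and models, and open orange circles the fits without 1 library. Cd300lf stays between 0.32 and 0.55, and Zbtb32 ranges from -0.63 to 0.03.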

How the data were processed

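Per the labels, an RNeasy micro kit gave RNA of sorted MZ B cells, which was made into libraries by the SMARTer Ultra Low RNA protocol; strand is not marked. The authors deposited estimated counts for each gene and library, unscaled. DRAGEN, limma and edgeR stand in the submitters' processing notes with neither version nor role; the genome build, annotation and alignment settings are not stated there (not given in the sources used here). Repeated rows of a gene ID, 287 in all, were removed and counts were rounded to whole numbers. Gene IDs were matched to GENCODE M21 (GRCm38) for positions and exon lengths, and promoters were taken from RefSeq.

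The genotype comparison used edgeR 4.0.16 (R 4.3.3): filterByExpr (minimum count 10, minimum total 15) kept 13794 genes, with TMM scaling, a robust quasi-likelihood F-test and Benjamini-Hochberg adjustment over all of them. The script was tested on simulated data. CPM values are TMM-scaled; errors are SDs over 3 libraries. Alternatives used DESeq2 1.42.0, limma 3.58.1, other scalings, filters and models, a replicate block, and leaving out each library.

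All 9 markers are named; from the other B-1 list the 2 with the smallest p, as none passed, and from lists of other cell types the 2 with the highest level. Genes named outside this rule were chosen after their values were seen, among them Fcgr1, Adgre1, Lyz2, Csf1r, Vcam1, Gcsam, Rgs13, Nuggc, Asb2 and the defining T cell genes. Klf2, Mki67, Ifit3 and Rsad2 were chosen in the same way. The members and lists were chosen with earlier results of these data known. Results of some genes of these lists are not reported here.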

Additional observations from a re-analysis of the deposited data

How the results depend on the processing

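Of 127 fold changes of the markers under 16 alternative settings, 117 kept their sign and their side of the threshold, 8 changed sign without being called either way, and 2 were called, both for Cd300lf. The number of markers past the threshold was 0 in each fit that left out 1 library and 1 with the DESeq2 Wald test and without a count filter. Over all tested genes the DESeq2 test called 137 and the fit without a count filter 232, against 55; the cause was not tested. Leaving out 1 library gave 37 to 53 calls over all genes. The median fold change of the markers (log2) ranged from 0.091, without WT replicate 3, to 0.20 in those fits.

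Deviations from the group means correlated at 0.07, -0.12 and 0.17 between the CD55KO and WT libraries of numbers 1 to 3. CD55KO replicates 1 and 3 correlated best with the WT library of their own number, and CD55KO replicate 2 with WT replicate 1 (0.17). With 3 libraries in a group, whose deviations cancel out, these values cannot decide whether the numbers pair the libraries. With the replicate block 64 genes and 0 markers passed, and the median of the markers was 0.19. Depth limits Ctla4, Zbtb32, Spn and Cd5, which had under 100 counts in each library.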
